A study of Homo sapiens with 16 samples.

Results

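Many proteins of the solute carrier family 35 (SLC35) bring activated sugars from the cytosol or nucleus into endoplasmic reticulum (ER) and Golgi apparatus. They are membrane proteins, and activated sugars are sugars coupled to a nucleotide. The 10 genes described here are SLC35A1, SLC35A2, SLC35A3, SLC35A4, SLC35A5, SLC35B1, SLC35B4, SLC35C1, SLC35D1 and SLC35D2. They were chosen by symbol, with earlier results of these data known, so counts of them called below are a description. Each matched 1 Ensembl gene of the 58051 in the count table. Their mRNA was followed by RNA sequencing in LNCaP cells, a prostate cancer line, in 4 groups of 4 libraries. In the knockdown experiment the cells carried either the Allstar control siRNA (siCtrl) or an siRNA against XBP1 (siXBP1) for 2 days. In the inhibitor experiment they received DMSO (Vehicle) or 10 μM MKC8866, an inhibitor of the IRE1α RNase, for 24 h. Thapsigargin, which causes ER stress by stopping calcium uptake into the ER, was then added to every group at 30 nM for 3 h, controls included, so no library represents unstressed cells. All libraries come from 1 cell line at passage 20. The labels do not say whether the 4 libraries of a group came from separate cultures, so p-values measure the spread between these libraries, which may be technical. The question behind both experiments is which genes depend on XBP1s, the transcription factor that cells make once IRE1α has spliced the XBP1 mRNA.

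Glycosyltransferases sit inside the ER and Golgi, while most of their sugar donors are made outside. A transporter of this family usually imports 1 or a few nucleotide sugars and releases the matching nucleoside monophosphate in return, which lumenal nucleoside diphosphatases produce from the diphosphate left after sugar transfer. The supply chain therefore runs from synthesis of the nucleotide sugar, through the transporter, to the transferase and the diphosphatase. Inherited loss of individual transporters causes disorders of glycosylation, and XBP1s is known as an activator of genes for folding, secretion and glycosylation in the ER.

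XBP1s is known to bind ACGT-containing elements, so the 300 bases around the RefSeq start sites of the transporters (250 before and 50 after, GRCh38.p14) were searched on both strands for 5 motifs. These were ERSE (a CCAAT box followed 9 bases later by CCACG), ERSE-II (the reverse complement of a CCAAT box followed 1 base later by CCACG), the UPRE core (TGACGTGG), CCACGT and its first 5 bases alone, CCACG, which are part of each of the others when both strands are read. All 10 transporters matched RefSeq, with 15 windows. None of them held ERSE, ERSE-II or the UPRE core, which are in 0.0769%, 0.0541% and 0.729% of all 35116 promoter windows. Other ACGT-containing sites were not searched for. The second window of SLC35A5 holds TGACGTGA, which differs from the UPRE core in its last base. The share of all windows with TGACGTGA was not counted. CCACGT was found in 2 transporters, SLC35A4 and SLC35C1, against 9.72% of all windows, and CCACG in 4, SLC35A1, SLC35A3, SLC35A4 and SLC35C1, against 38.1% of all windows. Transporters with several windows had more chances of a match than a single window does. Printed here are 5 windows, each 5′ to 3′ on the strand of its gene, with CCACG or its complement in capitals: SLC35C1 and SLC35B1, the genes lowered by both treatments; SLC35A2 and SLC35B4, which had the largest falls with knockdown; and SLC35A4, which was called in neither comparison. SLC35C1 has 3 windows, and the one shown is the third, chr11:45804899-45805198 on the plus strand. It is the one with the palindrome CCACGTGG, which starts at position -55 from the start site. That start site lies 1077 bases from the 5′ end of the gene in the count table. The first window, with a start site 7 bases from that 5′ end, held no CCACG. SLC35B1 is at chr17:49707915-49708214 on the minus strand, SLC35A2 (the second of 2 windows) at chrX:48911909-48912208 on the minus strand, SLC35B4 at chr7:134316881-134317180 on the minus strand and SLC35A4 at chr5:140564578-140564877 on the plus strand. Their start sites lie 1050 (SLC35B1), 0 (SLC35A2), 121 (SLC35B4) and 372 (SLC35A4) bases from the 5′ end in the count table.
SLC35C1: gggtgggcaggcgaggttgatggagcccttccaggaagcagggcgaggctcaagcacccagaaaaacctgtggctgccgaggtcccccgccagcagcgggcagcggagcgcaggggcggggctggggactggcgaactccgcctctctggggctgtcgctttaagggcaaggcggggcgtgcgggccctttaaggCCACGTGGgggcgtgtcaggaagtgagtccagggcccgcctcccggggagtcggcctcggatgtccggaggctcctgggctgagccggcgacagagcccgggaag
SLC35B1: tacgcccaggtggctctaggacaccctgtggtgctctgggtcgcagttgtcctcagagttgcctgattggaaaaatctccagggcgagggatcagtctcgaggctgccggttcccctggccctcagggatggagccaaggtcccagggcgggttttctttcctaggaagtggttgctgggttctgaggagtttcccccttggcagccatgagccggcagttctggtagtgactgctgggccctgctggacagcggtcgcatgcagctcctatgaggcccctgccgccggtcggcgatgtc
SLC35A2: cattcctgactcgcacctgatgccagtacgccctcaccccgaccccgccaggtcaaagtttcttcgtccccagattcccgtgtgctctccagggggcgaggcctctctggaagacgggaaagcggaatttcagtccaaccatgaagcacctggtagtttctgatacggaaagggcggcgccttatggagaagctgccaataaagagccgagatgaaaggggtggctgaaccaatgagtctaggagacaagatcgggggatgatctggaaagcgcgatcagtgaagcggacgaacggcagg
SLC35B4: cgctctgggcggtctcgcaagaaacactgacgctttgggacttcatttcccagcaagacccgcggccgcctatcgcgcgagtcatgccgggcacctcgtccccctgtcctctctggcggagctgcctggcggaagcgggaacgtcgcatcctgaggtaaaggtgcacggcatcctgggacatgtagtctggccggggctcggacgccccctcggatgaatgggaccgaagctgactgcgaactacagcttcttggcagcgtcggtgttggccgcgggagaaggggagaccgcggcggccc
SLC35A4: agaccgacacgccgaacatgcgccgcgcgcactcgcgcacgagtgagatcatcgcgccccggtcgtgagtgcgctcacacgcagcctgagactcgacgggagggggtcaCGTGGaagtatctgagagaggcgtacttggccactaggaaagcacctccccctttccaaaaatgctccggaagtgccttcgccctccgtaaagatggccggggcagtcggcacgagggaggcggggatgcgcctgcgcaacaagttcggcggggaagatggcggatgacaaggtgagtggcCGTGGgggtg
The windows of SLC35B1, SLC35A2 and SLC35B4 contain no CCACG on either strand, and SLC35A4 contains it at position -141 and at position 40. A match or its absence describes only these letters in these windows.

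Between 28713607 and 34509488 fragments were counted per library. XBP1 mRNA had a mean of 384 ± 28.2 CPM (counts scaled to the size of the library, SD, n = 4) in siCtrl and 53.2 ± 1.49 in siXBP1, a log2 fold change of -2.85 (SE 0.0505, edgeR adjusted p = 2.92e-20). With MKC8866 total XBP1 mRNA was higher, at 578 ± 33.5 CPM against 502 ± 24.6 in Vehicle (log2 fold change 0.20, SE 0.0437, adjusted p = 0.00493); the count does not separate spliced from unspliced XBP1. All 5 prostate luminal markers given here (KLK2, KLK3, TMPRSS2, FOLH1, HOXB13) were at or above a mean of 1 CPM in every group, while none of 3 basal and none of 3 leukocyte markers was. The summed luminal markers ran from 2012 to 2080 CPM in siXBP1 against 2521 to 2588 in siCtrl, and from 2868 to 2965 CPM in MKC8866 against 2524 to 2631 in Vehicle. The markers did not move alike: with knockdown KLK2, KLK3 and TMPRSS2 were called lower (log2 fold changes of -0.78, -0.86 and -0.89), while FOLH1 (-0.01, adjusted p = 0.867) and HOXB13 (0.01, adjusted p = 0.951) were not called. With MKC8866 only KLK3 was called, at a mean of 897 CPM against 650 in Vehicle (0.46, adjusted p = 2.75e-08), and FOLH1 and HOXB13 were also called higher with the replicate block (adjusted p = 0.0234 and 0.0115). Of 3 fibroblast markers 2 reached 1 CPM, with a sum from 27.1 to 39.6 CPM, and of 3 endothelial markers 1 did, with a sum from 7.38 to 10.5 CPM. The part of these markers in the results below was not tested. In bulk RNA, fewer cells that express a gene and less of its mRNA per cell cannot be told apart.

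XBP1 knockdown lowered 6 of the 9 transporters that could be tested and raised none. Of all 21021 genes tested, 18.2% were called lower and 16.5% higher, with calls made by edgeR where the p adjusted over all tested genes (Benjamini-Hochberg) was under 0.05. MKC8866 lowered 2 of 10 transporters and raised none, where 3.11% of all 21045 genes tested were called lower and 1.36% higher. In this experiment the replicate number was taken to pair the libraries. With it as a block the count was 3 of 10, against 7.05% of all genes called lower and 6.0% called higher. No transporter was higher in either comparison at an unadjusted p under 0.05 in edgeR (0 of 9 and 0 of 10) or by DESeq2 (0 in each). The median log2 fold change of the tested transporters was -0.30 with knockdown and -0.05 with MKC8866, beside 0.00 over all tested genes in each comparison. The transporters called lower by both treatments were SLC35B1 and SLC35C1, where 2.48% of the 20357 genes tested in both comparisons were called lower by each. Of these transporters SLC35C1 carries a nucleotide sugar, GDP-fucose, while SLC35B1 exchanges ATP for ADP.

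**Figure D1:**
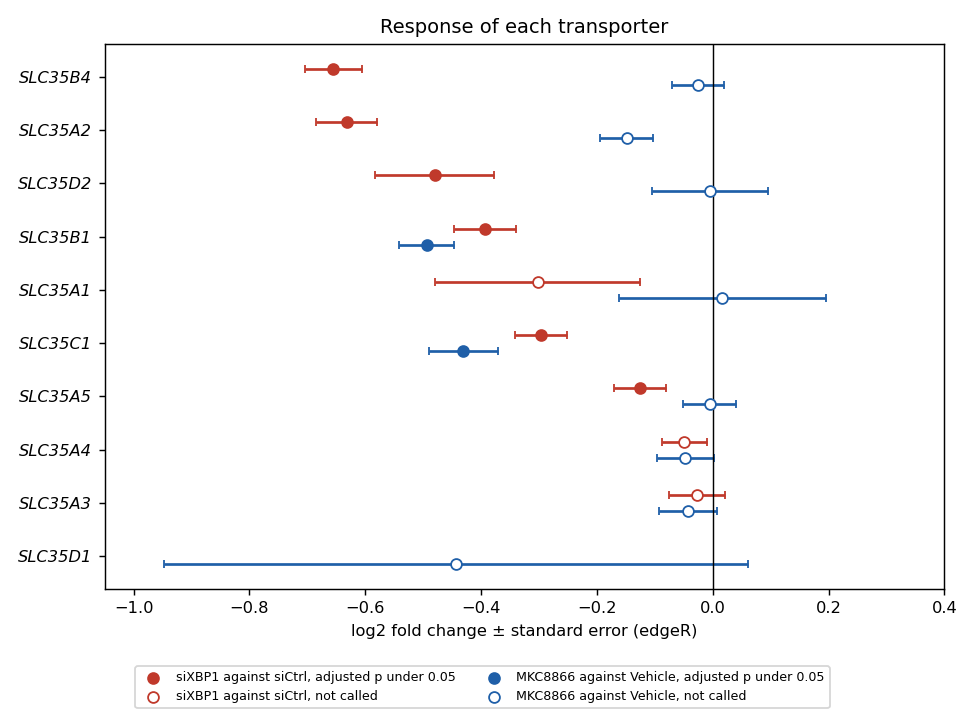
Log2 fold change (x axis, with its standard error as a bar) of each transporter (y axis) in siXBP1 against siCtrl (red) and MKC8866 against Vehicle (blue), 4 libraries per group; filled points have an adjusted p under 0.05 without a block. SLC35B4 and SLC35A2 lie farthest left in red, at -0.66 and -0.63, and only SLC35B1 and SLC35C1 are filled in blue; SLC35D1 was not tested in the knockdown.

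SLC35B1 and SLC35C1 are described first. SLC35B1 encodes a protein of the ER membrane that exchanges ATP for ADP, which supplies the chaperones of the ER lumen, and it was first named for its likeness to UDP-galactose transporters. The gene lies on chromosome 17 from 49700943 to 49709014 on the minus strand in the count table (GRCh38). Its mRNA was measured at 98.0, 87.4, 105 and 89.5 CPM in the siCtrl libraries 1 to 4 and at 73.1, 69.0, 75.8 and 71.0 CPM in siXBP1. Every siXBP1 library was below every siCtrl library, as in 17.5% of all tested genes. The level fell by 23.8%, a log2 fold change of -0.39 (SE 0.0536, adjusted p = 4.08e-06).

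With MKC8866, SLC35B1 mRNA fell by 29.0%. The Vehicle libraries 1 to 4 had 91.8, 95.6, 95.3 and 88.6 CPM, and the MKC8866 libraries 66.6, 68.3, 68.6 and 60.2 CPM. The groups did not overlap, and between same-numbered libraries the change ran from -32.1% to -27.4%. The log2 fold change of -0.49 (SE 0.0483, adjusted p = 1.17e-07) differed from that of knockdown by 0.10 (SE 0.0751, adjusted p = 0.361 for the interaction), a difference that did not pass the test.

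SLC35C1 is the Golgi GDP-fucose transporter, whose inherited loss causes leukocyte adhesion deficiency type II. It lies on chromosome 11 from 45804072 to 45813015 on the plus strand. The siCtrl libraries had 58.2, 59.4, 59.6 and 61.7 CPM, and the siXBP1 libraries 49.9, 49.5, 46.4 and 48.5 CPM. The lowest siCtrl library stood above the highest siXBP1 library, and SLC35C1 fell by 18.6%, a log2 fold change of -0.30 (SE 0.0452, adjusted p = 1.67e-05).

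In the inhibitor experiment SLC35C1 was at 59.3, 51.3, 60.8 and 57.9 CPM in Vehicle and at 45.8, 38.3, 44.4 and 41.7 CPM in MKC8866. Library 2 was the lowest of both groups, and the groups did not overlap. Within same-numbered libraries the change ran from -28.0% to -22.8%. The level fell by 25.8%, a log2 fold change of -0.43 (SE 0.0592, adjusted p = 2.20e-05), and the difference from knockdown, 0.14 (SE 0.0765, adjusted p = 0.222), did not pass the test.

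Over the 16 libraries and the 15037 genes with a mean of at least 1 CPM, the profile of log2 CPM most like that of SLC35C1 was that of HYOU1 (Pearson r = 0.969), followed by EHD1 (0.944) and NUMBL (0.943). For SLC35B1 they were TXNDC11 (0.961), MIR22HG (0.957) and OXSM (0.957). These correlations describe 16 libraries that share 2 experiments and their treatments, and they are no test.

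SLC35A2 is the Golgi UDP-galactose transporter. It lies on chromosome X from 48903180 to 48911958 on the minus strand. The siCtrl libraries had 52.2, 58.7, 56.8 and 61.0 CPM, and the siXBP1 libraries 35.9, 37.4, 35.6 and 38.5 CPM. The groups did not overlap, and SLC35A2 fell by 35.5%, a log2 fold change of -0.63 (SE 0.0529, adjusted p = 2.62e-09). This was the second largest fall among the tested transporters.

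With MKC8866 the difference in SLC35A2 was smaller. Vehicle had 50.7, 51.1, 52.0 and 50.5 CPM and MKC8866 47.7, 45.5, 45.7 and 45.5 CPM. All 4 MKC8866 libraries were below all 4 Vehicle libraries, which held in 5.15% of all tested genes, and each was below its same-numbered Vehicle library, with a change from -12.1% to -5.89%. The log2 fold change was -0.15 (SE 0.0452), with an adjusted p = 0.0655 in edgeR without a block and an adjusted p = 0.00294 with the replicate block. DESeq2 gave an adjusted p = 0.0283. The response to knockdown was lower than that to MKC8866 by a log2 difference of -0.48 (SE 0.0673, adjusted p = 2.44e-06 for the interaction).

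SLC35B4 transports UDP-xylose and UDP-N-acetylglucosamine and has been placed in both the ER and the Golgi. It lies on chromosome 7 from 134289332 to 134317051 on the minus strand. Its mRNA was at 60.4, 61.2, 58.5 and 56.4 CPM in siCtrl and at 38.6, 38.5, 34.9 and 37.9 CPM in siXBP1. No siXBP1 library reached the siCtrl range, and SLC35B4 fell by 36.5%, a log2 fold change of -0.66 (SE 0.0487, adjusted p = 3.63e-10), the largest among the tested transporters.

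In the inhibitor experiment the values of SLC35B4 overlapped. Vehicle had 52.9, 54.8, 53.8 and 55.1 CPM and MKC8866 51.3, 53.6, 55.2 and 52.8 CPM. The log2 fold change was -0.03 (SE 0.0451, adjusted p = 0.865). The difference between the responses, -0.63 (SE 0.0632, adjusted p = 6.59e-09), was the largest of the 9 transporters in which it could be tested, of which 3 were called, all with the lower value in knockdown, where 12.7% of all 20357 genes tested were called in that direction and 10.6% in the other. The experiments differ in the kind of inhibition, in transfection and in the time before thapsigargin, which cannot be told apart in this difference.

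SLC35D2, a Golgi transporter of UDP-N-acetylglucosamine and related sugars, was the third transporter with a called difference. It lies on chromosome 9 from 96320706 to 96383710 on the minus strand. It had 12.9, 10.3, 11.7 and 10.6 CPM in siCtrl and 7.78, 6.93, 10.1 and 7.87 CPM in siXBP1. The siXBP1 library 3 came close to the lowest siCtrl library, but the groups did not overlap, and the log2 fold change was -0.48 (SE 0.102, adjusted p = 0.000731). Vehicle had 11.4, 11.7, 8.64 and 10.3 CPM, and MKC8866 9.92, 11.6, 11.8 and 8.74 CPM. These groups overlapped almost entirely, with a log2 fold change of -0.0048 (SE 0.0999, adjusted p = 0.992). The difference between the responses was -0.47 (SE 0.155, adjusted p = 0.0255), and it was not called when siCtrl 1, siXBP1 2, Vehicle 3, MKC8866 2 or MKC8866 3 was left out, with an adjusted p from 0.0524 to 0.0706.

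**Figure D2:**
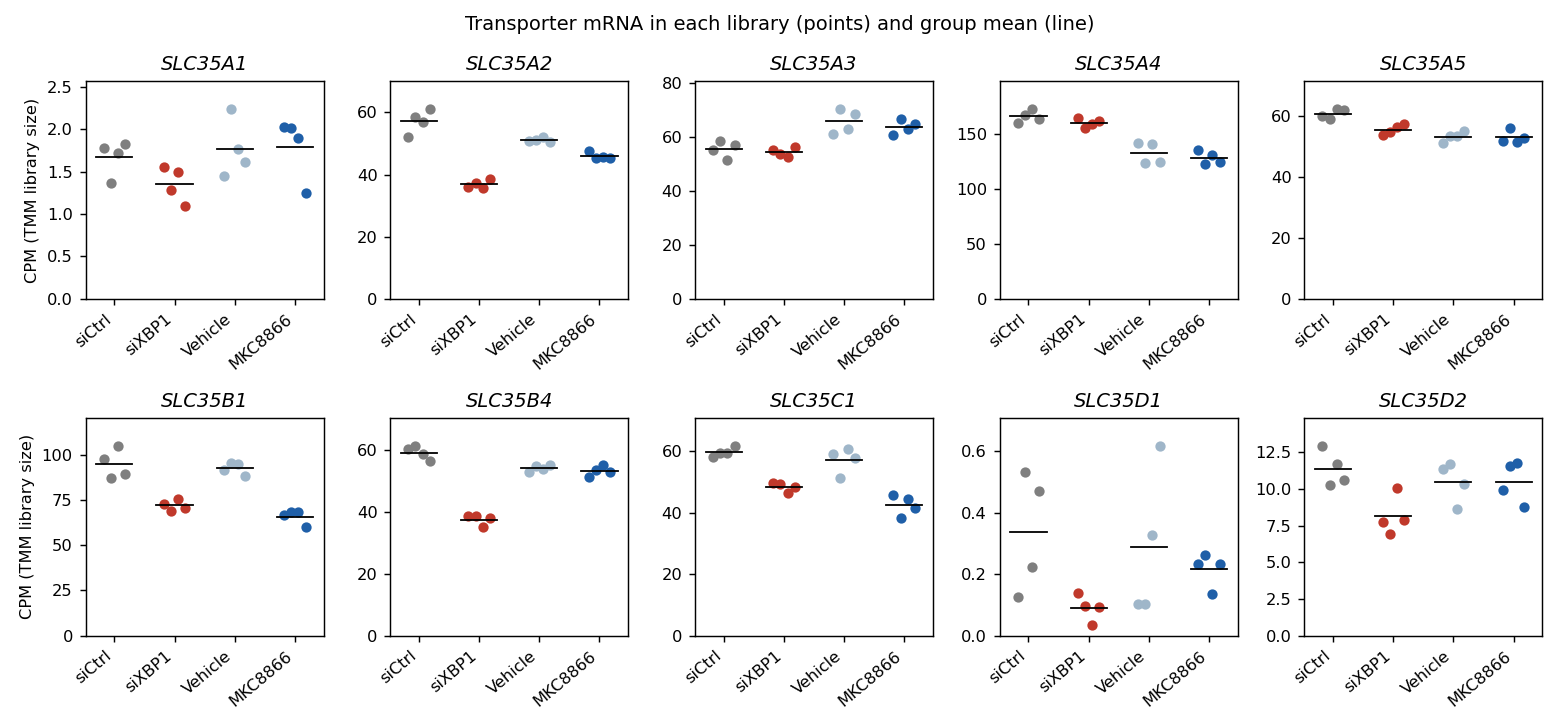
CPM (y axis, from 0, a separate scale per panel) of each of the 10 transporters in each library (points, in order of replicate number from left to right) of the 4 groups (x axis), with the group mean as a line. The siXBP1 points of SLC35A2, SLC35A5, SLC35B1, SLC35B4, SLC35C1 and SLC35D2 lie below all siCtrl points, and the MKC8866 points of SLC35A2, SLC35B1 and SLC35C1 lie below all Vehicle points.

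SLC35A5 is a Golgi member of the family whose substrate is not settled. It lies on chromosome 3 from 112561709 to 112585577 on the plus strand, and shares 3.11% of its exon bases with ATG3 on the other strand. The siCtrl libraries had 59.9, 58.9, 62.2 and 61.9 CPM and the siXBP1 libraries 53.7, 54.9, 56.3 and 57.4 CPM. The groups did not overlap, and SLC35A5 fell by 8.36%, the smallest change called (log2 fold change -0.13, SE 0.0444, adjusted p = 0.0308). The call was lost without siCtrl 3, siCtrl 4, siXBP1 1 or siXBP1 2, with an adjusted p from 0.0957 to 0.104. With MKC8866 SLC35A5 was at 51.9, 56.1, 51.6 and 52.9 CPM, and Vehicle was at 51.3, 53.6, 53.4 and 55.0 CPM, within the same range (log2 fold change -0.01, SE 0.0464, adjusted p = 0.977). The difference between the responses, -0.12 (SE 0.0604, adjusted p = 0.173), did not pass the test.

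SLC35A4 and SLC35A3 were not called in either comparison. SLC35A4, a Golgi protein for which transport of CDP-ribitol has been reported, lies on chromosome 5 from 140564456 to 140569103 on the plus strand, and shares 7.83% of its exon bases with APBB3 on the other strand. It had 160, 167, 172 and 163 CPM in siCtrl and 164, 155, 159 and 162 CPM in siXBP1 (log2 fold change -0.05, SE 0.0394, adjusted p = 0.382). It had 141, 124, 140 and 124 CPM in Vehicle and 136, 122, 131 and 124 CPM in MKC8866 (log2 fold change -0.05, SE 0.0496, adjusted p = 0.738). Libraries 2 and 4 were the lowest in each of the inhibitor groups, so the spread of SLC35A4 in that experiment followed the replicate number.

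SLC35A3, the Golgi UDP-N-acetylglucosamine transporter, lies on chromosome 1 from 99969789 to 100035637 on the plus strand. Its siCtrl libraries had 55.1, 58.3, 51.4 and 57.0 CPM and its siXBP1 libraries 54.9, 53.6, 52.6 and 56.3 CPM, with a log2 fold change of -0.03 (SE 0.0484, adjusted p = 0.732). Vehicle had 61.2, 70.1, 63.0 and 68.3 CPM, and MKC8866 60.6, 66.7, 62.8 and 64.8 CPM (log2 fold change -0.04, SE 0.0502, adjusted p = 0.767). Here libraries 2 and 4 were the highest of each inhibitor group, the reverse of SLC35A4. The Vehicle and siCtrl libraries of these genes did not overlap, with SLC35A3 higher and SLC35A4 lower in Vehicle. Nor did those of SLC35A2, SLC35A5 and SLC35B4, all lower in Vehicle, or those of XBP1, higher in Vehicle. For SLC35A1, SLC35B1, SLC35C1, SLC35D1 and SLC35D2 the controls overlapped. This comparison of controls from separate experiments was not tested, and its share over all genes was not counted. The difference between the responses was 0.02 (SE 0.0699, adjusted p = 0.888) for SLC35A3 and 0.0008 (SE 0.0648, adjusted p = 0.996) for SLC35A4.

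The remaining transporters had few counts. SLC35A1, the Golgi transporter of CMP-sialic acid, lies on chromosome 6 from 87470623 to 87512336 on the plus strand, and 55.5% of its exon bases also belong to ENSG00000213204 on the same strand. Fragments that overlap both genes were not counted, so its values cover only part of the gene. The libraries held 36 to 65 of its fragments. SLC35A1 had 1.78, 1.36, 1.72 and 1.82 CPM in siCtrl and 1.55, 1.28, 1.49 and 1.10 CPM in siXBP1, which overlapped (log2 fold change -0.30, SE 0.176, adjusted p = 0.207). In Vehicle it had 1.45, 2.23, 1.77 and 1.61 CPM, and in MKC8866 2.02, 2.01, 1.90 and 1.24 CPM, with no common direction between same-numbered libraries (log2 fold change 0.02, SE 0.179, adjusted p = 0.983). The difference between the responses of SLC35A1 was -0.32 (SE 0.255, adjusted p = 0.420).

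SLC35D1, the ER transporter of UDP-glucuronic acid and UDP-N-acetylgalactosamine, lies on chromosome 1 from 66999332 to 67054099 on the minus strand and was near the limit of detection. The siCtrl libraries held 4, 18, 7 and 16 of its fragments and the siXBP1 libraries 4, 3, 1 and 3, or 45 and 11 in sum. Because no siXBP1 library had more than 5, SLC35D1 did not enter the knockdown test. When no filter was used its log2 fold change was -1.87 (SE 0.548, adjusted p = 0.00425), with the groups meeting at 4 fragments. Vehicle held 3, 3, 10 and 21 fragments and MKC8866 7, 8, 4 and 8, a log2 fold change of -0.44 (SE 0.504, adjusted p = 0.763), and the higher value was in MKC8866 for library pairs 1 and 2 and in Vehicle for pairs 3 and 4. No difference of SLC35D1 was detected in the inhibitor experiment at these low counts.

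To compare levels between genes, counts were divided by exon length and given as RPKM. In siCtrl, SLC35A4 had the highest level, 41.2 ± 1.29 RPKM (SD, n = 4), or 35.4% of the sum over the 10 transporters. SLC35B1 (16.0 ± 1.37 RPKM) and SLC35A2 (15.3 ± 0.999 RPKM) came next, and their libraries overlapped. SLC35C1 (13.3 ± 0.326 RPKM), SLC35A5 (12.5 ± 0.329 RPKM), SLC35B4 (8.32 ± 0.300 RPKM), SLC35D2 (5.17 ± 0.541 RPKM) and SLC35A3 (3.72 ± 0.199 RPKM) followed without overlap between neighbours. SLC35A1 (0.838 ± 0.105 RPKM) and SLC35D1 (0.0549 ± 0.0315 RPKM) were the lowest. The RPKM of SLC35A3 rests on an exon length of 14899 bases over all annotated transcripts, and the level of SLC35A1 is uncertain for the shared exons given above. In Vehicle the order was the same, although SLC35A2 overlapped SLC35C1 there and SLC35D2 overlapped SLC35A3.

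In siXBP1 the order changed in the middle. SLC35A2 went from rank 3 in siCtrl to rank 5 in siXBP1, at 9.84 ± 0.361 RPKM, below SLC35A5 (11.5 ± 0.332 RPKM) and SLC35C1 (10.8 ± 0.349 RPKM). SLC35B1 remained second at 12.2 ± 0.495 RPKM, but its libraries overlapped those of SLC35A5. In MKC8866, SLC35A2 stood second at 12.3 ± 0.290 RPKM, above SLC35B1 (11.1 ± 0.664 RPKM), and SLC35A5 (10.9 ± 0.432 RPKM) stood above SLC35C1 (9.44 ± 0.735 RPKM). SLC35A4 was first in every group, with 39.8 ± 0.958 RPKM in siXBP1, 32.9 ± 2.39 RPKM in Vehicle and 31.9 ± 1.52 RPKM in MKC8866.

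**Figure D3:**
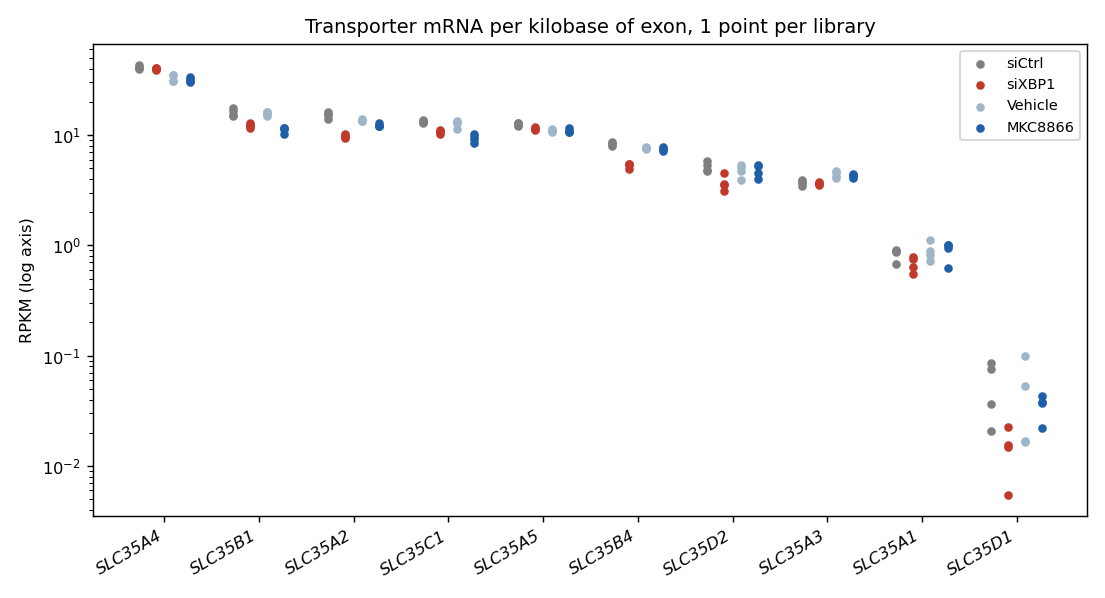
RPKM (y axis, log scale) of the 10 transporters (x axis, ordered by their mean in siCtrl), with 1 point per library and the 4 groups side by side in colour. SLC35A4 lies highest in every group, 7 transporters lie between 3.14 and 17.7 RPKM, and SLC35A1 and SLC35D1 lie lowest.

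The steps around the transporters were described from lists of genes by role. Of 23 genes for the synthesis of nucleotide sugars, 9 were called lower and 2 higher with knockdown, and 7 were called lower and none higher with MKC8866, or 10 lower with the replicate block. The shares over all tested genes were 18.2% lower and 16.5% higher with knockdown, 3.11% and 1.36% with MKC8866, and 7.05% and 6.0% with MKC8866 and the block, and the same shares apply to the other lists. At an unadjusted p under 0.05 in edgeR, and by DESeq2, 0 were higher with MKC8866. The median log2 fold change was -0.08 with knockdown and -0.10 with MKC8866. Lower in both comparisons were PMM2, GMPPA and GMPPB of the GDP-mannose branch that leads on to GDP-fucose, GFPT1 and PGM3 of the UDP-N-acetylglucosamine branch, and NANS, which makes the phosphate form of sialic acid. GMPPA, a regulatory subunit of the enzyme that forms GDP-mannose, went from 60.5 ± 5.97 to 25.6 ± 1.16 CPM with knockdown (log2 fold change -1.24, SE 0.0622, adjusted p = 4.77e-13) and from 60.2 ± 1.85 to 31.0 ± 1.87 CPM with MKC8866 (-0.96, SE 0.0518, adjusted p = 3.18e-12). PGM3, the phosphoacetylglucosamine mutase, fell by 1.05 on the log2 scale with knockdown (adjusted p = 6.40e-14) and by 0.77 with MKC8866 (adjusted p = 2.38e-11), and 14.8% of its exon bases lie under DOP1A on the other strand.

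GMPPB, the catalytic subunit, had log2 fold changes of -0.77 and -0.58 (adjusted p = 9.56e-12 and 6.76e-09), but 42.3% of its exon bases belong also to AMIGO3 and 17.3% to RNF123, so its level is uncertain. GFPT1, the first enzyme of the hexosamine pathway, had log2 fold changes of -0.74 with knockdown and -0.57 with MKC8866. For PMM2, a phosphomannomutase, they were -0.44 and -0.29, and for NANS -0.60 and -0.26. Of the exon bases of PMM2, 16.05% also belong to ENSG00000260276 on the same strand, and 5.93% lie under TMEM186 on the other. UAP1, which makes UDP-N-acetylglucosamine itself, had a log2 fold change of -0.95 (adjusted p = 1.61e-13) with knockdown and -0.12 with MKC8866 (adjusted p = 0.0855, and 0.000599 with the block), and the responses differed by -0.83 (SE 0.0571, adjusted p = 1.97e-12 for the interaction). GNE had a log2 fold change of -1.37 with MKC8866 (adjusted p = 0.0433), at means of 0.467 ± 0.131 CPM in Vehicle and 0.175 ± 0.0557 CPM in MKC8866; it was not called without Vehicle 1, 2 or 3 or MKC8866 1, 3 or 4, with an adjusted p from 0.0591 to 0.174. The genes called higher with knockdown were TSTA3, the last enzyme of GDP-fucose synthesis (0.44, adjusted p = 7.26e-08), and GNPNAT1 of the hexosamine pathway (0.22, adjusted p = 0.000612). Both are named after their values were seen. In GNPNAT1 35.6% of the exon bases lie under ENSG00000259049 on the other strand.

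Downstream of transport, 3 of 5 genes listed as nucleoside diphosphatases were called lower in each comparison and none higher. With the replicate block in MKC8866, 1 was called higher. At an unadjusted p under 0.05 in edgeR, 0 were higher with knockdown and 1 with MKC8866, and by DESeq2 0 in each. ENTPD7 had a log2 fold change of -1.94 with knockdown (SE 0.0629, adjusted p = 3.31e-16) and -0.68 with MKC8866 (SE 0.0651, adjusted p = 9.31e-08). Its responses differed by -1.26 (SE 0.0927, adjusted p = 8.60e-12 for the interaction). Only the list places ENTPD7 at this step, and which nucleotides it acts on was not tested. CANT1, a Golgi nucleotidase that acts on UDP, had -0.84 with knockdown and -0.81 with MKC8866 (adjusted p = 3.80e-13 and 1.14e-11). ENTPD4, a Golgi diphosphatase, had -0.44 and -0.21 (adjusted p = 5.14e-08 and 0.00382). ENTPD5 and ENTPD6 had log2 fold changes of -0.04 and 0.02 with knockdown, and neither passed the test there. With MKC8866 ENTPD6 had -0.02 (adjusted p = 0.869), and ENTPD5 had 0.11 (SE 0.0424), from a mean of 82.9 to 89.4 CPM without overlap between the groups, with an adjusted p = 0.190 without a block and an adjusted p = 0.00926 with it. In ENTPD5 24.0% of the exon bases lie under COQ6 on the other strand.

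Of 58 glycosyltransferases, 50 were tested in knockdown, of which 14 were called lower and 12 higher, beside 18.2% and 16.5% of all tested genes. With MKC8866, 5 of 51 tested were called lower and 2 higher (3.11% and 1.36% of all tested genes), or 8 and 6 with the replicate block (7.05% and 6.0%). MGAT1, which starts hybrid and complex N-glycans with N-acetylglucosamine, fell in both comparisons, from 111 ± 1.79 to 82.2 ± 3.59 CPM with knockdown and from 93.3 ± 0.631 to 76.9 ± 2.26 CPM with MKC8866 (adjusted p = 3.61e-08 and 5.94e-05). ST6GALNAC1, a sialyltransferase of O-glycans, had log2 fold changes of -0.83 and -0.32 (adjusted p = 8.09e-09 and 0.000820). ST6GALNAC4, of the same family, had -0.38 and -0.39 (adjusted p = 0.00530 and 0.0141), and the call with MKC8866 was lost without Vehicle 1 or 4 (adjusted p of 0.050 to 0.0632). MGAT2 also fell in both (adjusted p = 0.0343 and 0.0233), at a mean of 1.42 CPM or below in the knockdown experiment, and 91.9% of its exon bases lie under ENSG00000258377 on the other strand. Fragments that overlap both genes were not counted, so the values of MGAT2 cover only a small part of the gene and its level is uncertain. The call of MGAT2 was lost without siCtrl 1 or 2 or siXBP1 1, 2 or 4 with knockdown (adjusted p from 0.0740 to 0.122), and without Vehicle 2 or 3 or MKC8866 3 with MKC8866 (0.0693 to 0.104).

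MGAT4B, a branching N-acetylglucosaminyltransferase, rose in both comparisons, by 17.4% with knockdown and 37.4% with MKC8866 (adjusted p = 0.000319 and 3.04e-07). With knockdown the sialyltransferase ST3GAL6 had a log2 fold change of 1.21 (adjusted p = 0.000196) at means of 0.713 and 1.66 CPM, and the galactosyltransferase B4GALT6 one of 0.68 (adjusted p = 4.12e-07). With MKC8866 the other genes called were FUT3, with a log2 fold change of -0.36 (adjusted p = 0.0279), and B3GNT2, with 0.32 (adjusted p = 0.0199), both named after their values were seen. FUT3 was not called without Vehicle 1, 3 or 4 or MKC8866 1 or 3 (adjusted p from 0.0559 to 0.103), nor B3GNT2 without Vehicle 1 or 3 or MKC8866 4 (0.0643 to 0.103).

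Set against their donors, the transporters and transferases went as follows. For GDP-fucose, SLC35C1 was lower in both comparisons, while of 10 fucosyltransferases tested 2 were called lower and 2 higher with knockdown, and 1 lower with MKC8866. With the replicate block FUT1 was called higher as well (log2 fold change 0.20, adjusted p = 0.00489). For UDP-galactose, SLC35A2 was lower with knockdown, and of 10 galactosyltransferases 3 were called lower and 3 higher. With MKC8866 neither SLC35A2 nor any of these transferases was called without the block. The replicate block called SLC35A2 lower (adjusted p = 0.00294), and 2 of the transferases lower. For UDP-glucuronic acid and UDP-xylose, 1 of 6 transferases was called lower and 2 higher with knockdown, and none was called with MKC8866 (2 higher with the block). The values of SLC35B4, which carries UDP-xylose, are given above. SLC35D1, which carries UDP-glucuronic acid, did not enter the knockdown test and was not called with MKC8866. Without a filter SLC35D1 was called lower with knockdown (edgeR adjusted p = 0.00425), at the few fragments given above. For CMP-sialic acid, 4 of 15 sialyltransferases were called lower and 4 higher with knockdown, and 2 of 16 lower with MKC8866, while the transporter SLC35A1 was called in neither. The block added ST3GAL1 as higher with MKC8866 (0.10, adjusted p = 0.00155). For UDP-N-acetylglucosamine, the donor named above for SLC35A3, SLC35B4 and SLC35D2, 3 of 7 transferases (MGAT1, MGAT2 and MGAT5) were called lower and 1 (MGAT4B) higher with knockdown, and 2 were called lower and 2 higher with MKC8866, with or without the block. For UDP-glucose, UGGT1, which returns glucose to misfolded glycoproteins, was called lower with knockdown (-0.23, adjusted p = 0.000333), and with MKC8866 had -0.08 (adjusted p = 0.403, and 0.0429 with the block); UGGT2 was called in neither.

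Among 21 other genes of the SLC35 family, 17 were tested, of which 5 were called lower and 2 higher with knockdown, and 1 lower and 1 higher with MKC8866, or 1 and 2 with the replicate block. The 2 called higher with knockdown are 11.8% of those tested, beside 16.5% of all tested genes, and the 5 called lower are 29.4%, beside 18.2%. SLC35F5 had the largest change, from 82.2 ± 4.96 to 37.2 ± 0.985 CPM with knockdown (log2 fold change -1.14, SE 0.0497, adjusted p = 3.93e-14), and -0.02 with MKC8866 (SE 0.0513, adjusted p = 0.906); the responses differed by -1.12 (SE 0.0723, adjusted p = 5.48e-13). SLC35F6 was lower with knockdown (-0.27, adjusted p = 0.000631) and higher with MKC8866 (0.20, adjusted p = 0.00932), without overlap between the groups in either experiment. SLC35E1 was called lower in both, at -0.23 and -0.15 (adjusted p = 0.000104 and 0.0404). With MKC8866 the groups of SLC35E1 overlapped, and the call was lost without Vehicle 1, 3 or 4 or MKC8866 1 or 4 (adjusted p from 0.0684 to 0.125), while the replicate block gave an adjusted p = 9.74e-05. SLC35F1 and SLC35E4 were called higher with knockdown, at 0.90 (adjusted p = 0.00300) and 0.56 (adjusted p = 3.60e-05); SLC35F1 was near 1 CPM or below, and 27.7% of the exon bases of SLC35E4 lie under DUSP18 on the other strand. The other genes called lower with knockdown were SLC35B2, a carrier of the sulfate donor PAPS, and SLC35E2B, named after their values were seen; SLC35B2 was not called without siCtrl 3 or 4 or siXBP1 2 or 4 (adjusted p from 0.0592 to 0.141).

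**Figure D4:**
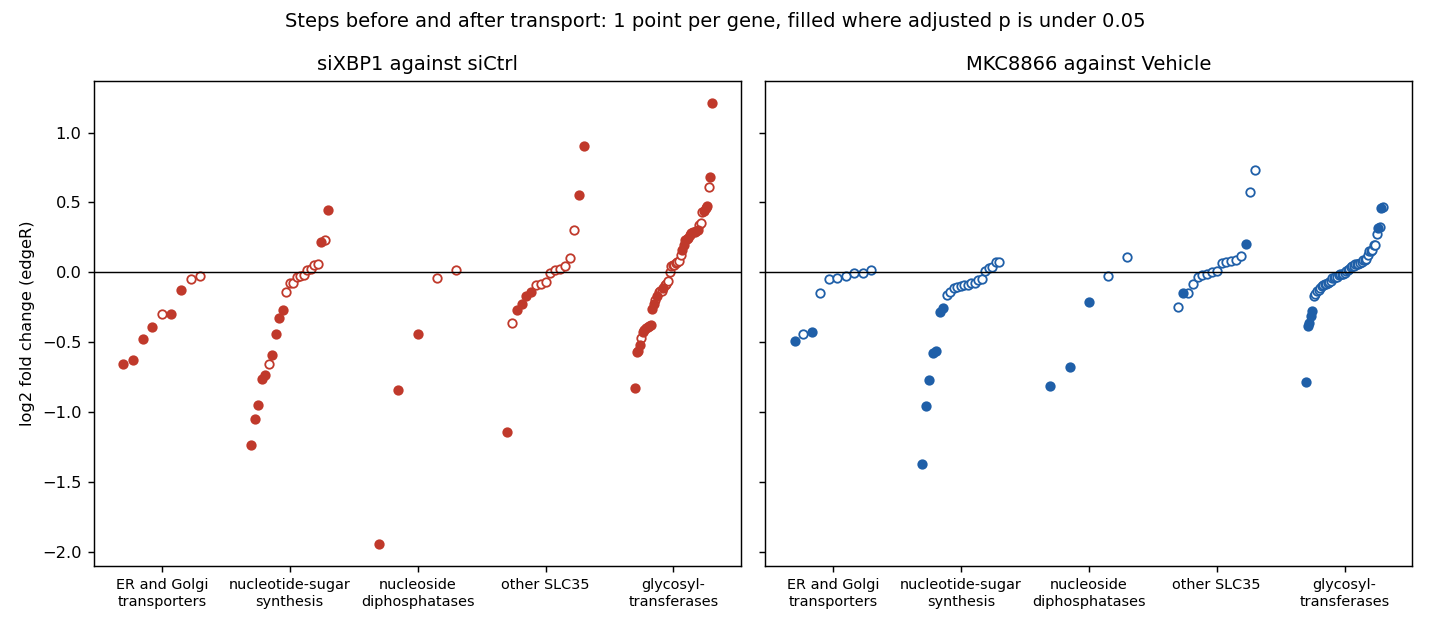
Log2 fold change (y axis) of each tested gene, by role (x axis), in siXBP1 against siCtrl (left) and MKC8866 against Vehicle (right); points are single genes in order of their value and are filled where the adjusted p is under 0.05 without a block. All filled transporter points lie below 0, as do all filled synthesis points on the right, while filled glycosyltransferase points lie on both sides of 0.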

How the data were processed

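RNA from 16 LNCaP libraries was prepared with a stranded kit. The deposited values are counts of fragments per gene, not normalized: per the study's methods and the file header, the authors aligned reads to GRCh38 with STAR 2.5.2a and counted with featureCounts 1.5.0 on Ensembl release 85, without regard to strand, leaving out multimapping fragments and fragments that overlap 2 genes. Symbols were matched for 56948 of 58051 genes. Column names gave every library's group and number.

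The study's filter was kept: in each group, 1 or more libraries had to exceed 5 counts. The tests were two-sided quasi-likelihood F tests of edgeR 4.0.16 (TMM library sizes, R 4.3.3) of each treatment against its own control, and of the difference between the responses as an interaction over 16 libraries. Adjusted p-values are Benjamini-Hochberg over all genes tested, and genes under 0.05 are called. CPM and RPKM use TMM library sizes and the deposited exon length. The biological coefficient of variation was 5.40% (knockdown) and 4.97% (inhibitor), which sets the precision for genes with many counts; counting error sets it for SLC35A1 and SLC35D1. Correlations used log2(CPM + 0.5).

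Same-numbered libraries deviated together in the inhibitor experiment (correlations of deviations from 0.113 to 0.395), so their numbers were taken as pairs. Between differently numbered libraries they ran from -0.258 to 0.172 there. Vehicle 3 went more with MKC8866 1 (0.172) than with MKC8866 3 (0.113), so the pairing of numbers 1 and 3 is uncertain. In the knockdown experiment same-numbered libraries ran from -0.01 to 0.07 and were not taken as pairs. No replicates agreed within sampling noise (chi-square per degree of freedom at least 2.39). Alternatives were DESeq2 1.42.0, its size factors, other filters, the replicate block, 1 fit of 16 libraries, a stricter threshold and leaving out each library. The tests were also run on simulated counts. Of genes changed there by 0.5 on the log2 scale, 64.2% (knockdown) and 72.7% (inhibitor) were called in the right direction. The changed genes were drawn from all genes tested, whatever their counts, and all were given the same spread. These shares were not worked out for the transporters and do not give the rate of missed changes among them. A gene that was not called may still have changed.

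The members and lists were chosen with earlier results of these data known. Genes given by name are the 10 members, XBP1, genes of each list called in the same direction in both comparisons, up to 3 called genes per list and comparison with the largest change, and the 3 genes most like each member called in both; exceptions are marked in the text. Of the luminal markers listed, 2 are not reported here.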

Additional observations from a re-analysis of the deposited data

Results flagged for a closer look

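Responses to the treatments differed for 3 transporters by the interaction test of edgeR. The log2 difference of knockdown minus MKC8866 was -0.48 for SLC35A2 (adjusted p = 2.44e-06), -0.63 for SLC35B4 (adjusted p = 6.59e-09) and -0.47 for SLC35D2 (adjusted p = 0.0255). In all of them the response was lower with knockdown. Kind of inhibition and experiment cannot be told apart in these differences.

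In 2 of the 40 sets of 4 libraries examined for the transporters, 1 library stood away from the others by Dixon's criterion, which chance meets in about 1 of 20 sets. SLC35A1 had 1.24 CPM in the lowest MKC8866 library, with a gap of 0.840 of the range of the group. SLC35A2 had 47.7 CPM in the highest MKC8866 library, with a gap of 0.906 of the range; this library was still below every Vehicle library.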

How the results depend on the processing

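Knockdown called 6 transporters lower, with 5 to 6 when single libraries were left out, and MKC8866 2, with 2 to 3 under the alternatives run; none was called higher under any of them. The replicate block in the inhibitor experiment added SLC35A2 (adjusted p = 0.00294), as did DESeq2 (0.0283) and the filter of at least 10 counts in every library (0.0417), and it changed no other call of a transporter. In the knockdown experiment, where libraries share only a number, the block left 6 called lower and 0 higher. SLC35A5 was not called without a filter (adjusted p = 0.0873), where SLC35D1 was. The difference of responses was called for 3 transporters, or 2 at an adjusted p under 0.01 and when some single libraries were left out. In the MKC8866 comparison the replicate block gave 1 nucleoside diphosphatase higher, 2 other SLC35 genes higher, and 8 glycosyltransferases lower and 6 higher. At an adjusted p under 0.01 it was 0 other SLC35 genes lower, and 2 glycosyltransferases lower and 1 higher. Leaving out single libraries gave 0 to 1 other SLC35 genes lower and, of glycosyltransferases, 3 to 6 lower and 1 to 3 higher; the count of other SLC35 genes lower, which is SLC35E1 alone, was 0 without Vehicle 1, 3 or 4 or MKC8866 1 or 4, the glycosyltransferases lower were 3 without Vehicle 1, 3 or 4, and those higher were 1 without Vehicle 1, Vehicle 3 or MKC8866 4.

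Signs turned only where no call was made. The difference of responses of SLC35A4 was -0.00081 with at least 10 counts in every library and -0.00053 with the replicate block. Leaving out single libraries turned the sign for SLC35A3 with knockdown (-0.056 to 0.010), for SLC35A1 (-0.065 to 0.16), SLC35A5 (-0.038 to 0.0073), SLC35D1 (-0.72 to 0.27) and SLC35D2 (-0.091 to 0.074) with MKC8866, and for the differences of responses of SLC35A3 (-0.015 to 0.050) and SLC35A4 (-0.033 to 0.031). The cause was not tested. RPKM levels with raw totals in place of TMM sizes moved by less than 1 SD in all 40 values. Depth limits SLC35A1 and SLC35D1.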
